A study of Mus musculus with 9 samples.

Results

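miR-335 is a mouse microRNA (miRNA) whose hairpin lies in an intron of Mest, a gene that is imprinted, so that only the copy inherited from the father is transcribed. Its entries were taken from the count table by name, as all sequence tags listed under the hairpin mmu-mir-335 together with the mature names of both arms. This gave 23 of the 6414 entries of the table, of which 21 were sequence tags with counts, 13 from the 5p arm and 8 from the 3p arm, and 2 were mature names without a count in any library. miR-335 was chosen by its level, which was known to differ between 5-Brd-2′-dU and the other libraries. Its levels and fold changes are therefore given as a description without a test, and tests were kept for the balance of the arms and for the choice of tags within an arm.

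The libraries were made from small RNA of B16F1, a pigmented melanoma cell line from the skin of C57BL/6J mice. Control cells were not exposed, L-Tyr cells were exposed to 5 mM of the amino acid L-tyrosine, from which melanin is made, and 5-Brd-2′-dU cells to 2.5 µg/mL of bromodeoxyuridine, an analog of thymidine that is built into DNA. Each group had 3 libraries, and exposure lasted 72 h without a change of medium. The study asked how miRNAs change while both exposures slow proliferation and pigmentation moves in opposite directions. The labels name no separate cultures for the 3 libraries of a group, and the methods speak of independent replicates only in general, so that p-values measure the spread between these libraries, which may in part be technical. All of them stand for 1 cell line. The total count was between 144452 and 424122 per library, and 3 counts, the upper limit that a count of 0 allows, were worth between 7.07 and 20.8 counts per 1000000 counts of the library (CPM). The labelled cell type was checked with miR-211-5p, miR-211-3p and miR-204-5p, miRNAs of pigment cells. All 3 were detected, miR-204-5p in every library but 5-Brd-2′-dU replicate 1. The summed level was between 10910 and 15602 CPM in the Control libraries, 24613 and 28605 in L-Tyr, and 5415 and 8039 in 5-Brd-2′-dU. Most of it was miR-211-5p, and miR-204-5p did not pass 83.1 CPM in any library.

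A miRNA hairpin is cut out of a longer transcript by Drosha, and its loop is then removed by Dicer. This leaves a short duplex whose strands are named 5p and 3p after the arm they come from. Usually one strand is kept by an Argonaute protein, which it guides to messenger RNAs that pair with bases 2 to 8 of the strand, the seed. A miRNA in an intron can share the promoter of its host gene, and the seed moves along with the 5′ end, so that a strand that begins later reads other targets. In human cancers miR-335 is best known as a suppressor of breast cancer metastasis, where SOX4 and tenascin C are among its targets. Mest, also named Peg1, encodes an enzyme-like protein of the endoplasmic reticulum and is expressed mainly in embryonic and mesodermal tissue. Its messenger RNA was not measured in these libraries.

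In the mouse build NCBIM37 (mm9), Mir335 lies on the plus strand at chr6:30691299-30691396, within an intron of Mest at chr6:30690825-30692140. Of 13 annotated Mest transcripts, 9 span the hairpin, and 0 have an exon that overlaps it. The hairpin begins 17752 bases after the start of Mest. The sequences of RefSeq (GRCm38.p6) show where the tags came from. In the hairpin the mature arms are in capitals, and in the mature sequences the seed is in capitals.
mmu-mir-335 hairpin: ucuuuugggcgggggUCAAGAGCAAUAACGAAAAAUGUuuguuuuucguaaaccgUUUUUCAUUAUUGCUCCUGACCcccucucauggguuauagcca
mmu-miR-335-5p: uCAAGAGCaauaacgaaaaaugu
mmu-miR-335-3p: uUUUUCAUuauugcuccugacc

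The arms carry different seeds, and among 1679 mature mouse sequences of the same source, 0 others had the seed of the 5p arm and 0 others that of the 3p arm. miR-335 was thus a family of its own in this table. None of its tags was also listed under another hairpin, and each exact tag was found once on chromosome 6, so that its counts cannot have been split with a copy on that chromosome.

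The tags that made up most of each arm are shown because they begin at different bases of the annotated mature sequence. They are written as DNA, as in the count table, with those bases in capitals that belong to the annotated seed.
5p, annotated start, 20 bases: tCAAGAGCaataacgaaaaa
5p, 1 base later, 20 bases: CAAGAGCaataacgaaaaat
5p, 2 bases later, 20 bases: AAGAGCaataacgaaaaatg
5p, 3 bases later, 19 bases: AGAGCaataacgaaaaatg
5p, 4 bases later, 18 bases: GAGCaataacgaaaaatg
3p, annotated start, 20 bases: tTTTTCATtattgctcctga
3p, 2 bases later, 20 bases: TTTCATtattgctcctgacc
3p, 3 bases later, 19 bases: TTCATtattgctcctgacc
3p, 4 bases later, 18 bases: TCATtattgctcctgacc

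No tag in the table was longer than 20 bases, whereas the annotated arms have 23 and 22 bases. A tag of the table can therefore show only a part of the mature strand. Whether longer reads were clipped before counting, and at which end, is not given in the sources used here, so that the first base of a tag need not be the first base of the strand. Of the 21 tags, 1 did not match the hairpin exactly. It was a 3p tag with 16 counts in 5-Brd-2′-dU replicate 2 only, which carried C19A, counted from the first base of the tag.

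miR-335-5p was higher in every 5-Brd-2′-dU library than in any Control or L-Tyr library. Its summed counts were 76, 224 and 120 in Control, 67, 33 and 0 in L-Tyr, and 616, 1344 and 1175 in 5-Brd-2′-dU. After scaling with TMM, a factor per library that sets most miRNAs equal between libraries, its level was 368, 553 and 537 CPM in Control replicates 1 to 3 (mean 486.2 ± 102.3, SD, n = 3). In 5-Brd-2′-dU the level was 3535, 3066 and 4141 CPM (3581 ± 539, SD, n = 3), so that the lowest of these libraries stood 5.54 times above the highest Control library. In L-Tyr it was 417, 124 and 0 CPM (180 ± 214, SD, n = 3). The count of 0 in L-Tyr replicate 3 allows up to 15.5 CPM, and this group overlapped with Control. In bulk RNA, a larger share of cells with miR-335 and more miR-335 per cell cannot be told apart.

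miR-335-3p, the less abundant arm in most libraries, was ordered alike. Its counts were 24, 41 and 0 in Control, 16, 7 and 15 in L-Tyr, and 228, 804 and 393 in 5-Brd-2′-dU. These gave 116, 101 and 0 CPM in Control (72.5 ± 63.3, SD, n = 3), 99.6, 26.3 and 77.3 CPM in L-Tyr (67.7 ± 37.5, SD, n = 3), and 1308, 1834 and 1385 CPM in 5-Brd-2′-dU (1509 ± 284, SD, n = 3). The 0 in Control replicate 3 allows up to 13.4 CPM. The 5-Brd-2′-dU libraries did not overlap with the others, while Control and L-Tyr did.

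**Figure D1:**
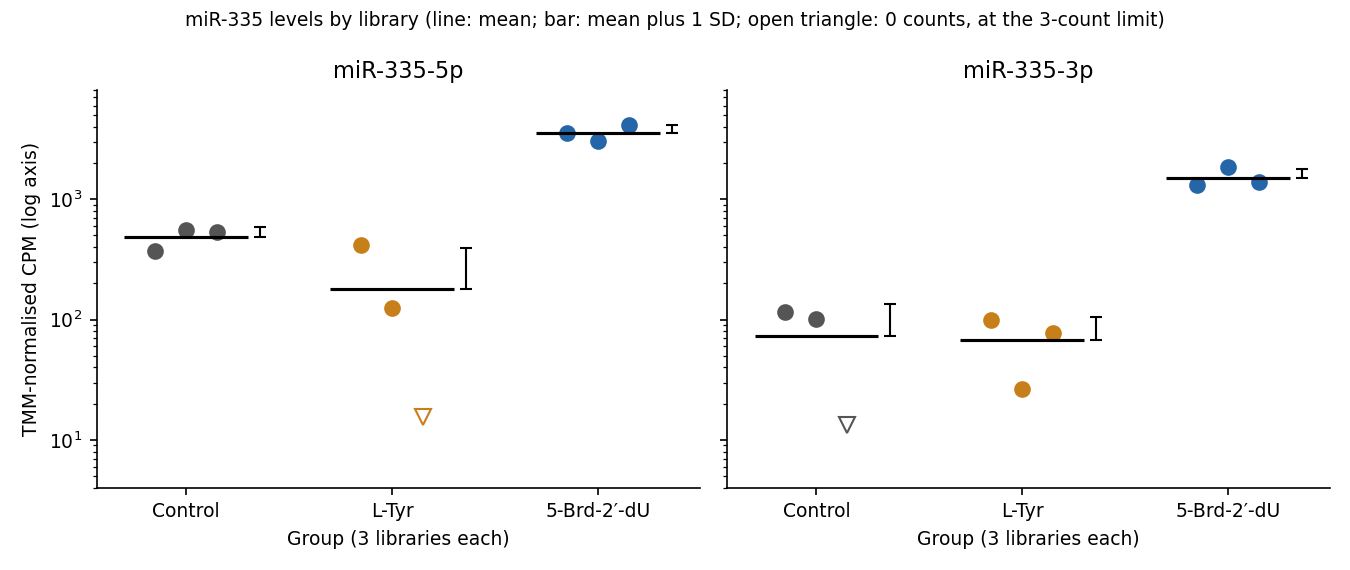
TMM-normalised CPM (log axis) of miR-335-5p and miR-335-3p in each library of the 3 groups, with the mean as a line and 1 SD above it as a bar. Open triangles stand for libraries with 0 counts, drawn at the level of 3 counts. In both panels the 5-Brd-2′-dU libraries lie above all others, and the L-Tyr libraries spread over the range of Control and below it for the 5p arm.

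The log2 fold change of 5-Brd-2′-dU relative to Control was 2.94 (SE 0.308) for the 5p arm, which is 7.69-fold, and 4.40 (SE 1.15) for the 3p arm. Relative to L-Tyr it was 4.28 (SE 1.22) for the 5p arm and 4.44 (SE 0.645) for the 3p arm. These comparisons share the 5-Brd-2′-dU libraries. The SE was wider for the arm that had a library at 0 in the reference group. L-Tyr relative to Control gave −1.54 (SE 1.26) for the 5p arm and −0.20 (SE 1.56) for the 3p arm. These lay within 2 SE and 1 SE of 0, and the sign of the 3p value turned with total count scaling (0.05). Of 275 miRNA names tested in 5-Brd-2′-dU relative to Control, 6 were called with edgeR (quasi-likelihood test, adjusted p under 0.05), or 2.18%, and miR-335-5p was among the 5 called higher (1.82%). Relative to L-Tyr, 6 of 242 names were called (2.48%), 3 of them higher (1.24%), and miR-335-3p was among these. In L-Tyr relative to Control, 6 of 249 names were called (2.41%), 4 higher (1.61%) and 2 lower (0.803%), and neither arm was among them. The 5p call relative to Control was lost with all 9 libraries in one fit and without Control replicate 2, and the 3p call relative to L-Tyr was lost with all 9 libraries and without L-Tyr replicate 3, 5-Brd-2′-dU replicate 1 or 5-Brd-2′-dU replicate 2. These calls belong to the contrasts for which miR-335 was chosen and are no independent evidence. By the size of a positive fold change, the 5p arm stood at place 13 and the 3p arm at place 7 of the 275 names.

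As a share of the whole library, the hairpin went from 0.0503%, 0.0625% and 0.0455% of all counts in Control to 0.493%, 0.559% and 0.411% in 5-Brd-2′-dU. In L-Tyr the share was 0.0575%, 0.0168% and 0.0086%. When the names of each library were ordered by their counts, miR-335-5p stood at places 122, 113 and 106 in Control, among 393, 437 and 355 names with a count. In 5-Brd-2′-dU it stood at places 52, 54 and 58 among 321, 458 and 393 names. The total counts of the 5-Brd-2′-dU libraries, 171362, 384486 and 381324, lay within the range of the Control libraries but for the first, which was below it.

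The next question was whether both arms moved together. The 5p arm held 76.0%, 84.5% and 100% of the hairpin's counts in Control and 73.0%, 62.6% and 74.9% in 5-Brd-2′-dU. All 3 shares in 5-Brd-2′-dU were below those in Control, with the nearest pair 76.0% and 74.9%, whose 95% Wilson intervals (66.8% to 83.3% and 72.7% to 77.02%) overlapped. The mean shares were 86.8% ± 12.2 and 70.2% ± 6.65 (SD, n = 3 each), with p = 0.1 by a two-sided exact permutation test (adjusted p = 1.0 over 15 tests of shares). With 3 libraries against 3, no lower p can be reached. How many other hairpins had arm shares that did not overlap between these groups was not counted. In L-Tyr the 5p share of miR-335 was 80.7%, 82.5% and 0%, where the last value rests on 15 counts and has an interval up to 20.4%. The intervals cover counting error only, since PCR copies of a molecule were counted as separate reads.

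Across hairpins, arm use was tested with edgeR's diffSpliceDGE, which asks whether the arms of a hairpin change by different amounts. For miR-335 the log2 ratio of 5p to 3p differed by −1.49 (SE 0.976) between 5-Brd-2′-dU and Control, with an adjusted p of 0.454 over 62 hairpins. In that comparison 0 hairpins were called (0.0%) by diffSpliceDGE and 0 by limma, with 8 and 4 at an unadjusted p under 0.05. The difference was −1.33 (SE 1.70, adjusted p = 0.912, 58 hairpins) between L-Tyr and Control, where 1 hairpin was called (1.72%). Between 5-Brd-2′-dU and L-Tyr it was −0.17 (SE 1.45, adjusted p = 0.955, 48 hairpins), and the sign of this last value turned when L-Tyr replicate 1 was left out (0.85). A change of the arm balance was thus not detected at this depth and this spread between libraries.

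**Figure D2:**
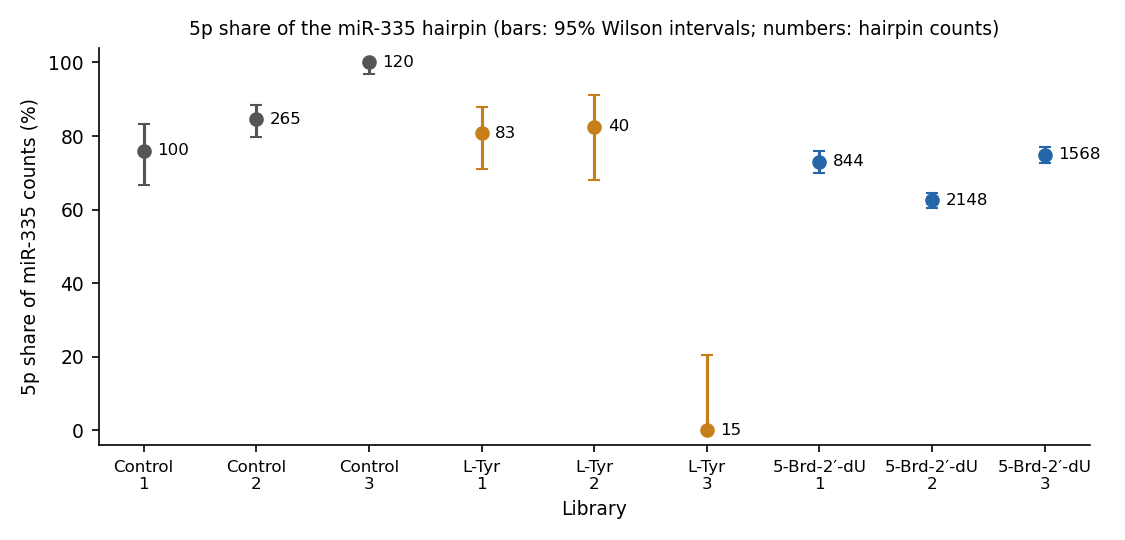
Share of miR-335 counts that came from the 5p arm (percent) in each of the 9 libraries, with 95% Wilson intervals and the number of hairpin counts beside each point. The 5-Brd-2′-dU shares lie between 62.6% and 74.9% with short intervals, while L-Tyr replicate 3 has 0 of 15 counts in the 5p arm.

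Within the 5p arm the tags did not begin mainly at the annotated base. The most abundant tag began 2 bases later and was 20 bases long. It held 34.4% of all 5p counts, with 49, 41 and 25 counts in Control, 35, 0 and 0 in L-Tyr, and 197, 428 and 481 in 5-Brd-2′-dU. Over the 9 libraries, 41.4% of the counts of exact 5p tags began 2 bases after the annotated start and 11.3% at it, with a mean shift of 2.42 bases. Of these 3655 counts, 3135 came from 5-Brd-2′-dU, so that the pooled shares describe mostly that group. In Control alone, 34.8% began 2 bases late and 21.4% at the annotated base. A tag that begins 2 bases late holds 6 of the 7 bases of the annotated seed. These shares describe the tags as counted, with the limit on clipping given above.

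The 3p arm was alike. Its most abundant tag also began 2 bases late and held 45.7% of the 3p counts, with 9, 32 and 0 counts in Control, 15, 0 and 15 in L-Tyr, and 160, 375 and 93 in 5-Brd-2′-dU. Exact 3p tags began at the annotated base in 18.2% of counts and 2 bases later in 47.4%, with a mean shift of 2.05 bases. Of these 1512 counts, 1409 came from 5-Brd-2′-dU.

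Late starts were common in the table and were not particular to miR-335. Among all other miRNAs that could be matched to RefSeq, 30.8% of counts began at the annotated base and 24.8% began 2 bases later. In Control alone these shares were 27.2% and 26.1%. Among 118 other mature sequences with at least 500 counts, the median share at the annotated base was 25.2% and the median of the mean shift was 1.55 bases. Of these, 35 had a lower share at the annotated base than miR-335-5p and 47 a lower one than miR-335-3p. These places use the pooled shares, in which most miR-335 counts came from 5-Brd-2′-dU.

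**Figure D3:**
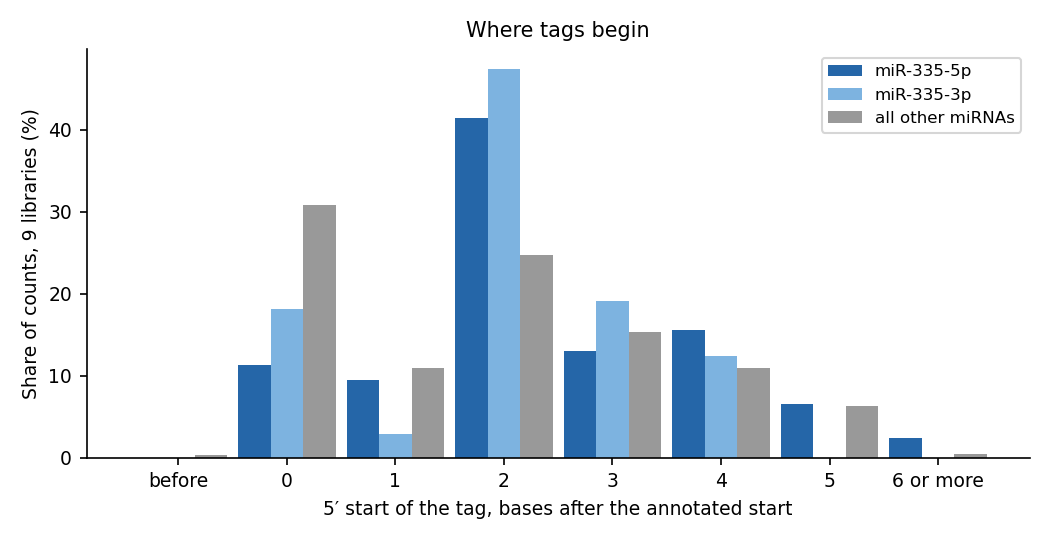
Share of counts (percent, 9 libraries summed) by the base at which exact tags begin, counted from the annotated start of the mature sequence, for miR-335-5p, miR-335-3p and all other miRNAs with a RefSeq match. Both arms of miR-335 have their highest bar 2 bases after the annotated start (41.4% and 47.4%), and the other miRNAs at it (30.8%). Most miR-335 counts came from 5-Brd-2′-dU. In Control alone, which is not drawn, the other miRNAs had 27.2% at the annotated start and 26.1% 2 bases after it.

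The share of 5p counts at the annotated base was lower in each 5-Brd-2′-dU library than in each Control library. It was 22.4%, 17.9% and 27.5% in Control, 44.8% and 3.03% in the L-Tyr libraries with 5p counts, and 1.14%, 6.85% and 16.5% in 5-Brd-2′-dU. This measure was chosen after its values were seen and has no test. Of 109 other mature sequences with at least 500 counts and a count in all 6 libraries, 5 had a lower share in every 5-Brd-2′-dU library than in every Control library (4.59%), and 12 had a higher one. Without 5-Brd-2′-dU replicate 3, 11 of the 109 were lower. Summed over all other miRNAs, the share was 27.1%, 27.6% and 26.6% in Control and 27.7%, 30.5% and 46.1% in 5-Brd-2′-dU, where the last value is that of replicate 3, the library with the high levels of stromal miRNAs. For the 3p arm the share was 8.33% and 22.0% in the Control libraries with 3p counts and 20.6%, 16.5% and 21.4% in 5-Brd-2′-dU, which overlapped.

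The diffSpliceDGE tests of tag use showed no difference past the threshold. The permutation tests of shares could not pass it. Their lowest possible p was 0.1, or 0.2 where an arm had counts in only 2 libraries of a group. The start and the tag tested were those with the most counts over the 9 libraries, and most of these counts came from 5-Brd-2′-dU. The start 2 bases late took 64.5%, 32.1% and 20.8% of 5p counts in Control and 37.7%, 43.2% and 44.2% in 5-Brd-2′-dU (exact two-sided permutation p = 0.9, means 39.1% ± 22.6 and 41.7% ± 3.50, SD, n = 3). The most abundant 5p tag took 34.5% ± 26.0 and 34.9% ± 5.21 of its arm in these groups (exact two-sided permutation p = 1.0). Of the 15 permutation tests of arm, tag and start shares in the 3 comparisons, the lowest p was the 0.1 given above for the arms. The diffSpliceDGE test of tags within a name gave adjusted p values of 0.999 for both arms between 5-Brd-2′-dU and Control, with 10 of the 13 5p tags and 3 of the 8 3p tags past the count filter. In that comparison it called 0 of 139 names (0.0%), with 6 at an unadjusted p under 0.05. A tag could pass the filter through 5-Brd-2′-dU alone. The 5p tag of 19 bases that begins 3 bases late had 65, 51 and 143 counts there and 0 in every Control library. Between L-Tyr and Control, 3 5p tags were tested. The set of tags tested was thus partly fixed by the contrast for which miR-335 was chosen. Between 5-Brd-2′-dU and L-Tyr the adjusted p was 1.0 for the 5p arm and 0.967 for the 3p arm.

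The make-up of the arms varied strongly between libraries of the same group. Control replicate 1 had 4 of the 13 5p tags above 0 and Control replicate 2 had 7, while the 5-Brd-2′-dU libraries had 12, 13 and 11. In L-Tyr replicate 3 a single tag, the most abundant of the 3p arm, held all 15 counts of the hairpin. In L-Tyr replicate 2 that tag was at 0 and 6 of 7 3p counts lay on the tag that begins 3 bases late. All 21 tags had a higher mean level in 5-Brd-2′-dU than in Control, and 8 of them were at 0 in every Control library. For 14 of the 21 tags every 5-Brd-2′-dU library was above every Control library, where 4.37% of all tags with a count did so, and 14 were above every L-Tyr library (4.53% of all tags). These counts restate the contrast by which miR-335 was chosen. The 8 tags at 0 in Control, and the 12 at 0 in every L-Tyr library, could not come out lower in 5-Brd-2′-dU. As a description, the 5-Brd-2′-dU counts lay on tags of both arms and not on a single sequence.

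**Figure D4:**
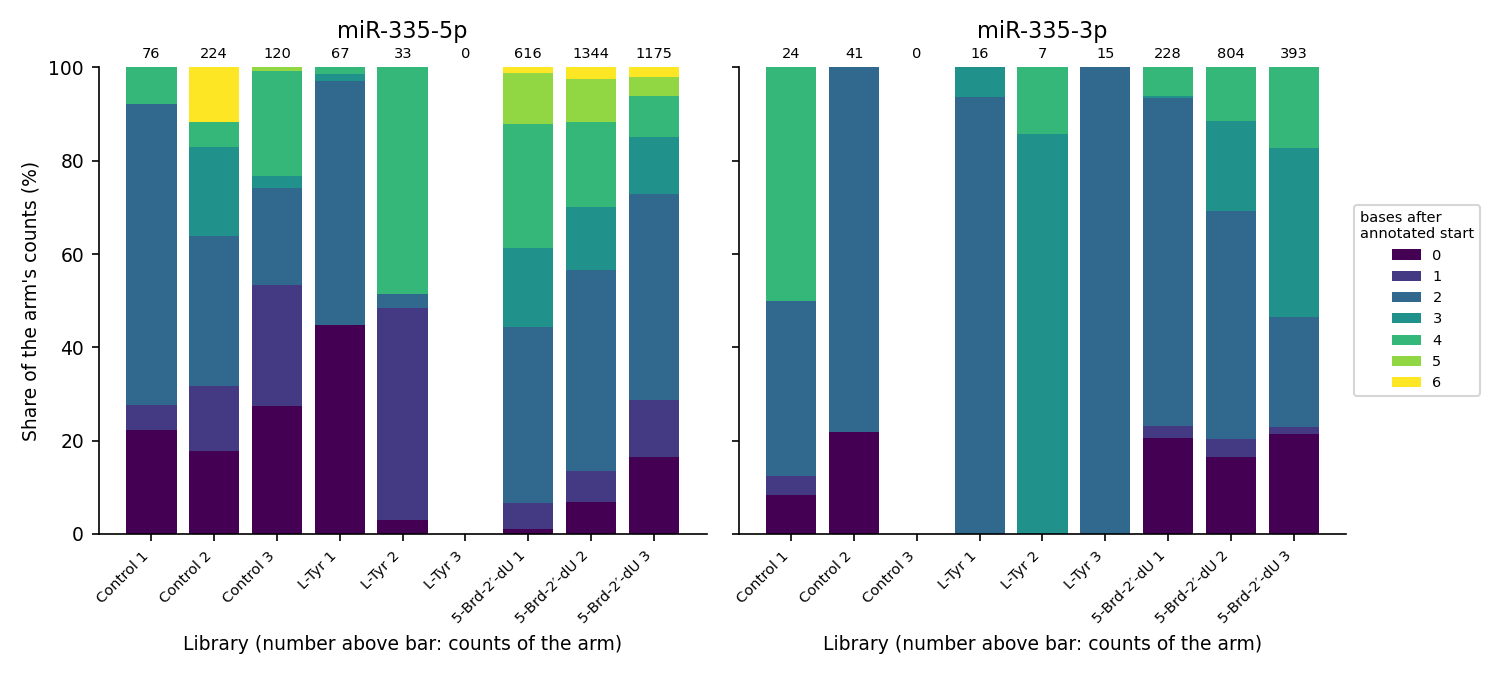
Share of the counts of miR-335-5p and miR-335-3p (percent) by the number of bases between the annotated start and the start of the tag, in each library, with the counts of the arm above each bar. The 5-Brd-2′-dU bars, which rest on 228 to 1344 counts, are split over 5 to 7 starts, and the Control and L-Tyr bars, which rest on at most 224 counts, differ from library to library.

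One library stood apart and was looked at before miR-335 was set beside other miRNAs. In 5-Brd-2′-dU replicate 3, miR-143-3p, a miRNA of smooth muscle and other stromal cells, was at 193762 CPM of the library total, while it lay between 887 and 7320 CPM in the other 8 libraries. The summed level of 7 stromal and endothelial markers was between 1459 and 3149 CPM in Control, between 2534 and 8113 in L-Tyr, and 3571, 5379 and 202161 in 5-Brd-2′-dU. All 7 were detected. The 3 erythroid markers, all detected, summed to 5206 CPM in that library and to at most 315 CPM in the others. The 5 leukocyte markers summed to 1104 CPM there and to at most 75.6 CPM elsewhere. That sum came from miR-142a-5p (802 CPM) and miR-223-3p (302 CPM), with miR-150-5p and miR-155-5p at 0. miR-150-5p was found only in L-Tyr replicate 2 (75.6 CPM) and miR-155-5p only in 5-Brd-2′-dU replicate 1 (64.2 CPM). miR-142a-3p was at 0 throughout, so that 4 of the 5 were detected in any library. miR-122-5p, the hepatic marker, was at 83.9 CPM in L-Tyr replicate 2, at 15.7 CPM in 5-Brd-2′-dU replicate 3, and at 0 in the others. With TMM, miR-335-5p was at 3535, 3066 and 4141 CPM in 5-Brd-2′-dU replicates 1 to 3. As CPM of the library total, the scale of the markers, it was at 3595, 3496 and 3081. The stromal sums of replicates 1 and 2 were also above every Control library, but below L-Tyr replicate 2. Without 5-Brd-2′-dU replicate 3, the log2 fold change relative to Control was 2.77 (SE 0.339) for the 5p arm and 4.43 (SE 1.13) for the 3p arm. The part of other cell types in the level of miR-335 was not tested.

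miRNAs of other imprinted loci were compared with miR-335 because Mest is imprinted too. The list held 207 names of the table, drawn from the large miRNA cluster between Dlk1 and Dio3, which is expressed from the maternal copy, and from Igf2, H19, Gnas, Sfmbt2 and the Prader-Willi region. Of these, 23 had a count above 0 in any library, and none passed the count filter in any comparison, so that none was tested. The list as a whole had between 1 and 36 counts in each of 8 libraries and 4024 in 5-Brd-2′-dU replicate 3. There 21 of its names were above 0, and 12 of them had counts in no other library. Without that library 11 of the 207 names had a count. The names with the highest mean level were miR-379-5p, miR-431-5p and miR-369-3p. In 5-Brd-2′-dU replicate 3 they were at 3598, 2305 and 1628 CPM. In the other 8 libraries they did not pass 45.1 CPM, and miR-369-3p was at 0 in all 8. In 5-Brd-2′-dU replicates 1 and 2 the list summed to 5.74 and 54.7 CPM, beside 3535 and 3066 CPM of miR-335-5p alone. The list and the stromal markers above were both highest in 5-Brd-2′-dU replicate 3. Among the other 8 libraries, the list was highest in L-Tyr replicate 1 (224 CPM), where the stromal markers summed to 2548 CPM. The stromal markers of these 8 were highest in L-Tyr replicate 2 (8113 CPM), where the list summed to 120 CPM. The part of stromal cells in the result was not tested.

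**Figure D5:**
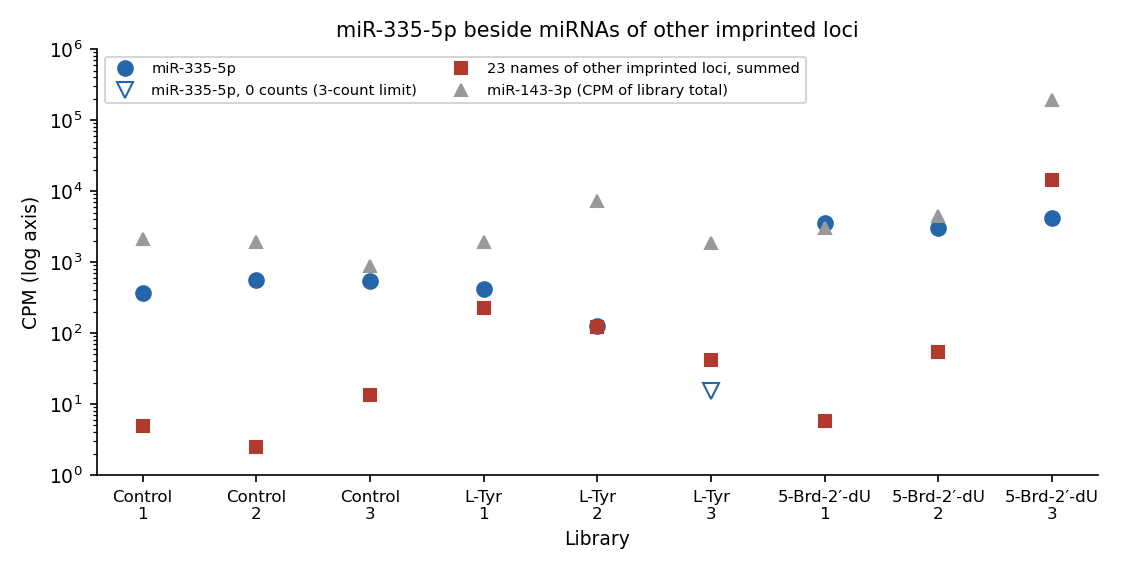
Level (CPM, log axis) of miR-335-5p, of the 23 detected names of other imprinted loci summed, and of miR-143-3p in each library. miR-335-5p and the imprinted sum are scaled with TMM and miR-143-3p by the library total. miR-335-5p is high in the 3 5-Brd-2′-dU libraries, while the imprinted sum and miR-143-3p are highest in 5-Brd-2′-dU replicate 3 alone.

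Other miRNA genes on chromosome 6 were described to see how the surroundings of Mir335 behaved. The list held 8 hairpins: Mir592, Mir129-1, Mir182, Mir96, Mir183, Mir29b-1, Mir29a and Mir490. The nearest on either side were Mir29a, 321 kb after Mir335, and the cluster of Mir182, Mir96 and Mir183, 572 to 575 kb before it. They gave 16 names, of which 13 had a count. In 5-Brd-2′-dU relative to Control, 8 were tested, 1 was called higher and 0 lower, beside 1.82% and 0.364% of all names. The median log2 fold change of these 8 was 0.29, beside −0.07 for the 275 names tested. In L-Tyr relative to Control, 6 were tested and 1 was called higher (1.61% of all names), with a median of −0.19 beside −0.18. Relative to L-Tyr, 5-Brd-2′-dU had 6 names tested with a median of 0.15 beside 0.03. There the edgeR test called 0 of the 6, and 0 had an unadjusted p under 0.05.

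The called name was miR-129-5p, which is produced by Mir129-1 on chromosome 6 and by Mir129-2 on another chromosome, so that the gene of origin cannot be told apart. It was at 4824, 5693 and 5739 CPM in Control, 10904, 12521 and 10287 in L-Tyr, and 19385, 13240 and 11415 in 5-Brd-2′-dU. It rose in both exposures, by 0.99 in L-Tyr (SE 0.188, edgeR adjusted p = 0.030) and by 1.48 in 5-Brd-2′-dU (SE 0.233, edgeR adjusted p = 0.0235) on the log2 scale, but both calls were lost under some other settings, and each was lost in 5 of the 6 fits without 1 library. miR-129-1-3p, which only the hairpin on chromosome 6 gives and which was picked out after its values were seen, had a log2 fold change of 0.70 (SE 0.585) in 5-Brd-2′-dU and 1.48 (SE 0.660) in L-Tyr and was not called. miR-129-2-3p, from the hairpin on the other chromosome and picked out in the same way, was called higher in both exposures. Its log2 fold change was 1.61 (SE 0.300, edgeR adjusted p = 0.0358) in 5-Brd-2′-dU and 1.98 (SE 0.386, edgeR adjusted p = 0.030) in L-Tyr. Next to Mir335, miR-29a-3p, a regulator of collagens, was among the most abundant of the list, with 13780, 16907 and 12087 CPM in Control and 8401, 14695 and 10495 CPM in 5-Brd-2′-dU (log2 fold change −0.29, SE 0.272, edgeR adjusted p = 0.663). miR-183-5p, a miRNA of sensory cells, was at 6410, 6733 and 10480 CPM in Control and at 10180, 5482 and 5329 CPM in 5-Brd-2′-dU (−0.13, SE 0.310, edgeR adjusted p = 0.922). Control and 5-Brd-2′-dU overlapped for miR-29a-3p and miR-183-5p, and did not overlap for miR-129-5p or for miR-335. Whether miR-335 changed together with its surroundings was not tested.

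The miRNAs whose level followed that of miR-335-5p most closely over the 9 libraries were miR-187-3p (Pearson r = 0.893), miR-195a-5p (0.857), miR-101b-3p (0.857), miR-345-5p (0.845) and miR-503-5p (0.799), among 295 names of other hairpins. The correlations are on log2 CPM and are a description over 9 libraries in 3 groups, which share their depth and scaling factor between names. They rested largely on L-Tyr replicate 3: when it was left out, 1 of the 5 names stayed among the 10 most alike. miR-195a-5p and miR-345-5p were at 0 in that library, and miR-187-3p was at 36.1 CPM, its lowest level. miR-503-5p, a cell cycle miRNA of the family of miR-16, had the same order of groups as miR-335-5p, with 562, 815 and 573 CPM in Control, 349, 354 and 371 in L-Tyr, and 1475, 844 and 1399 in 5-Brd-2′-dU. Its log2 fold change in 5-Brd-2′-dU relative to Control was 0.98 (SE 0.388, edgeR adjusted p = 0.217), against 2.94 for miR-335-5p. The other strand of the same hairpin, miR-335-3p, had r = 0.606 and came after 26 names of other hairpins. It was at 0 in Control replicate 3, where the 5p arm was not, and at 77.3 CPM in L-Tyr replicate 3, where the 5p arm was at 0.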

How the data were processed

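Small RNA libraries of B16F1 cells were sequenced by the authors on an Illumina HiSeq, and the authors deposited raw counts per sequence tag or miRNA name, made with the BaseSpace Small RNA app by comparison with mm9 and miRBase. Tags longer than 20 bases were absent from the table, and 1.72% of counts lay on predicted miRNAs. The deposited normalized counts, and tables with the authors' own fold changes and p-values, were not used.

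The members and lists were chosen with earlier results of these data known. Tags were summed by arm, with a start before base 35 of the hairpin taken as 5p, and by miRNA name. Each comparison used its 6 libraries in edgeR 4.0.16 (R 4.3.3) with TMM, filterByExpr and the quasi-likelihood test, Benjamini-Hochberg adjustment and a threshold of 0.05. The SE is the log2 fold change divided by the square root of F. Arm and tag use were tested with diffSpliceDGE, and shares with exact permutation tests (SciPy 1.17.1). CPM in the text use TMM over 9 libraries, and correlations log2 CPM with a prior count of 2. Marker levels are CPM of the library total. Tag starts were found in RefSeq hairpins, which held 76.4% of tag counts, and hairpins placed in NCBIM37.

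Named beside miR-335 were the tags with at least 5% of an arm, shown above by 9 examples, the 5 most alike names of other hairpins, list members called in any comparison, and the 3 members of each list with the highest mean level. In simulated libraries of 5-Brd-2′-dU and Control, the test of 243 names had 18 calls, 1 of them false, and found 33.3% of 4-fold changes. The test of arm use found 18.7% of 4-fold changes over 10 draws (38 calls, 4 false), and that of tag use 11.1% of 8-fold changes (22 calls, 1 false). Alternatives included DESeq2 1.42.0 and limma 3.58.1.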

Additional observations from a re-analysis of the deposited data

How the results depend on the processing

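The higher level of both arms in 5-Brd-2′-dU kept its direction under every alternative run. The log2 fold change relative to Control lay between 2.77 and 3.13 for the 5p arm and between 3.90 and 4.99 for the 3p arm, and that relative to L-Tyr between 3.69 and 5.81 and between 3.65 and 4.87, where 3.65 came from the most abundant 3p tag alone. L-Tyr relative to Control lay between −2.89 and −0.85 for the 5p arm and between −0.73 and 0.50 for the 3p arm. Of 13 alternatives, the call of miR-335-5p relative to Control was kept in 10 and lost with all 9 libraries, with the replicate block and without Control replicate 2. The call of miR-335-3p relative to L-Tyr was kept in 8 and lost with all 9 libraries, with the replicate block and without L-Tyr replicate 3, 5-Brd-2′-dU replicate 1 or 5-Brd-2′-dU replicate 2. The uncalled 3p arm relative to Control and 5p arm relative to L-Tyr were called in 3 and 2 alternatives. When 1 library was left out, the 5p value relative to Control was 2.77 to 3.07 and the 3p value 3.90 to 4.88.

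The arm difference between 5-Brd-2′-dU and L-Tyr turned positive with limma (1.50) and with the replicate block (0.49), and ranged from −0.87 to 0.85 when 1 library was left out. With 1 library left out it was −2.16 to −0.80 for 5-Brd-2′-dU and −2.42 to −0.60 for L-Tyr, each relative to Control. With a mean count of at least 50 in each arm, no value could be given for L-Tyr relative to Control, and for tag use of the 3p arm none could be given there by the filter used. No alternative brought arm or tag use past the threshold.

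The number of names called depended on the settings. For L-Tyr relative to Control it was 6, and 11 without a filter, 2 with all 9 libraries, 1 with the replicate block, 16 with DESeq2, and 1 to 9 without 1 library. For 5-Brd-2′-dU relative to Control it was 6, and 3 with total count scaling, 48 without a filter, 12 with all 9 libraries, 0 with the replicate block (39 at an unadjusted p under 0.05), 12 with a mean count of at least 50, 26 with DESeq2, and 0 to 7 without 1 library. Between the exposed groups it was 6, and 27 without a filter, 3 with all 9 libraries, 3 with the replicate block, 12 with DESeq2, and 0 to 5 without 1 library. Names of the imprinted list were called only without a filter, 9 relative to Control and 5 relative to L-Tyr. The call of miR-129-5p in L-Tyr was lost (0 called) with all 9 libraries and with the replicate block, that in 5-Brd-2′-dU with total count scaling (0) and with the replicate block (0), and each counted 0 to 1 without 1 library. Of the 5 names most like miR-335-5p, 1 to 5 were among the 10 most alike without 1 library, with 1 of 5 left without L-Tyr replicate 3. The imprinted list had 23 names with counts, and 11 without 5-Brd-2′-dU replicate 3, which was added after the data were seen. The cause of these differences was not tested.

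The deviations of same-numbered libraries had correlations from −0.0974 to 0.0422, and those of the other pairs from −0.0699 to 0.121. They showed no pairing by replicate number, but so few pairs cannot exclude one. The replicate block changed the counts as given above. Depth limits the arm and tag comparisons in Control and L-Tyr, where an arm had at most 224 counts per library.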
